A study of Mus musculus with 10 samples.

Results

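The regions described here are stretches of H3K27ac that the authors listed for MDM brain macrophages and whose midpoint lies between the annotated start and end of a protein-coding gene. They number 216 of the 428 listed for MDM and 1320 listed for either group, and each is about 2 kb long. They were chosen by their place in the MDM list, which rests on the H3K27ac measured in these libraries, so that difference is a description and was not tested again. The assay was CUT&Tag, which uses an antibody to tether a transposase to chromatin that carries the mark and sequences the fragments released there, in 4 MDM and 4 YSM libraries. The series title writes MDM out as monocyte-derived macrophages; for YSM no long form is given. Both groups were brain parenchymal macrophages sorted from mice of the genotype Ms4a3Cre:R26-tdTomato, and both had the treatment DR-3x, an abbreviation left unexplained. No age is given, nor whether libraries came from separate animals. As a limit of the model, Ms4a3Cre labels cells descended from granulocyte-monocyte progenitors and leaves other lineages without the tdTomato reporter.

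H3K27ac, acetylation of lysine 27 of histone H3, is laid down at active promoters and enhancers. Stretches at a transcription start usually mark a promoter in use, and stretches deeper within a gene usually mark enhancers in introns, which may act on the gene around them or on another one. Microglia, the resident macrophages of the brain, and macrophages that arrive from monocytes are known to use partly different enhancers in the same tissue. A region inside a gene therefore names a place, and the gene that holds it is called its host below.

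The 216 regions lay in 146 host genes, 0.667% of the 21900 protein-coding genes of the RefSeq table for GRCm38.p6, the assembly of mm10; YSM regions lay in 349 genes, or 1.59%. Neighbouring regions were joined over short gaps (the distance stands with the methods), which left 171 groups, 132 of them of a single region and none of more than 3. In 103 hosts there was 1 region, in 27 there were 2, and in 16 there were 3 or more. A single region, at Hoxb4, lay in a pair of genes at once, since the table places Hoxb4 within Hoxb3. The members nearest the edge of a gene had midpoints 0.008 kb inside Anxa1, 0.027 kb inside Akr1c13 and 0.029 kb inside Gm9733. The nearest MDM regions left out had midpoints 0.011 kb beyond Thbd, 0.014 kb beyond Sirpb1b and 0.015 kb beyond Cd93. Both sides of the edge thus hold regions that cover gene ends.

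At 7 of the hosts discussed below, a member region covers the transcription start, and the 250 bases before that start are printed to show the DNA that carries the mark. Sequences are from RefSeq (GRCm38.p6), read 5' to 3' on the strand of the gene. Capitals mark matches, on either strand, to 1 of 13 short motifs, which are spelled out after the sequences. The windows are Anxa1 at chr19:20390672-20390921 (minus strand), Mgst1 at chr6:138140277-138140526 (plus), Nlrc4 at chr17:74459109-74459358 (minus), Ifi44l at chr3:151762892-151763141 (minus), Sirpb1c at chr3:15848488-15848737 (minus), Lrrk2 at chr15:91672974-91673223 (plus) and Plcb4 at chr2:135659297-135659546 (plus).
Anxa1: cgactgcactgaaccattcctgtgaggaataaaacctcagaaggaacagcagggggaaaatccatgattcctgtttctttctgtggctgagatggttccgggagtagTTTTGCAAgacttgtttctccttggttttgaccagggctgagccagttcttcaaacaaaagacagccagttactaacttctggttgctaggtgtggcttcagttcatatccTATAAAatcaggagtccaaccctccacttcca
Mgst1: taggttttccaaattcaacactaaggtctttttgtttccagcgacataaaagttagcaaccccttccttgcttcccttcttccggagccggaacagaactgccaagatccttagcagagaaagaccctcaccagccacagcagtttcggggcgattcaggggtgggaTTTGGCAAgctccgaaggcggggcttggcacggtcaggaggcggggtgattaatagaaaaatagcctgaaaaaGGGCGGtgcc
Nlrc4: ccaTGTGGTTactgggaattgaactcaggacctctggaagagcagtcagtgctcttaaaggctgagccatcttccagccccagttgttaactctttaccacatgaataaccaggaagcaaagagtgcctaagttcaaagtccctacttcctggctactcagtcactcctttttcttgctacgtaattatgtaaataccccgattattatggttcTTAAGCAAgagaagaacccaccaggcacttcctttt
Ifi44l: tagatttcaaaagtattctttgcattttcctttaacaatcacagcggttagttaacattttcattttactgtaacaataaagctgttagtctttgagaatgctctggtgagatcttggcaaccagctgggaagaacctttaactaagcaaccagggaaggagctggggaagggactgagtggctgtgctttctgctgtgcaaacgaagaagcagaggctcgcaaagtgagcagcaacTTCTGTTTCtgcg
Sirpb1c: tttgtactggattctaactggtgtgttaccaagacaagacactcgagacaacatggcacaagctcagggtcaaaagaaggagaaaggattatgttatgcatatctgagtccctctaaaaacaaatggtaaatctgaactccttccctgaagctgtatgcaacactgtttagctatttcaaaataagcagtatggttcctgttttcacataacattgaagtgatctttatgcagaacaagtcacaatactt
Lrrk2: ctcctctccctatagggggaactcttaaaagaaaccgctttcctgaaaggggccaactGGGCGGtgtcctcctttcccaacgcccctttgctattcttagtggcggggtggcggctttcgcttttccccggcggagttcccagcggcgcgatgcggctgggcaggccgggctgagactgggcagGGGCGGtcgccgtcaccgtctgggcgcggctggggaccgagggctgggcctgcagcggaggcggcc
Plcb4: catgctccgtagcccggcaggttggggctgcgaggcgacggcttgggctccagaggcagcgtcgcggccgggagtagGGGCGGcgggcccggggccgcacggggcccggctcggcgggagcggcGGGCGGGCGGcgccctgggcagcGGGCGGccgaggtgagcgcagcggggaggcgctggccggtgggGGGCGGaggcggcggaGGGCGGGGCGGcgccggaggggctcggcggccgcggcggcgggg

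The window of Anxa1, which encodes the anti-inflammatory phospholipid-binding protein annexin A1, held a match to the TATA box motif from base -32 relative to the start, and another to the C/EBP motif from base -143. That of Mgst1, a microsomal glutathione transferase, held a C/EBP match from base -83 and the KLF/SP motif GGGCGG from base -10. Nlrc4, the inflammasome protein that responds to bacterial flagellin with NAIP partners, held a C/EBP match from base -36 and the RUNX motif TGTGGTT from base -247. In Ifi44l, a gene induced by interferon, the match was to the IRF motif, from base -13. No motif searched was present before the start of Sirpb1c, a SIRP-beta family receptor gene, which says only that these letters were not in this window. Lrrk2, the kinase gene mutated in familial Parkinson disease, held GGGCGG 2 times. Plcb4, a phospholipase C of G protein signalling, held it 7 times, and its window (250 bases before to 50 after the start) had a GC content of 84.0%, against 39.0% for Sirpb1c. These were the highest and the lowest GC contents among the promoter windows of the members.

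The motifs were searched in windows from 250 bases before to 50 after each start. Of the 17492 protein-coding genes with such a window, 0.172% had a start within a member region, against 0.0343% for MDM regions outside genes and 0.234% for YSM regions inside genes. They were 30 genes, of which 29 were hosts themselves and 1, the exchange factor gene Arhgef39, neighbours its host Car9. In the 31 windows of these genes the C/EBP motif TTGCNNAA occurred in 4 (12.9%), beside 10.2% of all 21263 protein-coding windows and 18% (9 of 50) of the windows whose start lay in a YSM region inside a gene. The RUNX motif TGTGGTT occurred in 3 (9.68%, all windows 4.71%, YSM 8.00%), the E-box CACGTG of MITF and TFE factors in 3 (9.68%, all 7.84%, YSM 6.00%) and the IRF motif GAAANNGAA in 2 (6.45%, all 8.15%, YSM 8.00%). The AP-1 motif TGANTCA occurred in 1 (3.23%, all 6.99%, YSM 2.00%) and TATAAA in 2 (6.45%, all 12.6%, YSM 8.00%). The PU.1 motif GAGGAAGT (all 3.13%), the NF-kB motif GGGANTTCC (1.84%), the MEF2 motif CTATTTATA (0.451%), the SMAD motif GTCTAGAC (0.226%), the CRE motif TGACGTCA (2.23%) and the NRF1 motif GCGCATGCG (2.35%) occurred in 0. GGGCGG occurred in 10 of the 31 windows (32.3%, all 46.2%), and in 27 of the 50 YSM windows (54.0%).

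The ratio of observed to expected CpG, which is high in CpG islands, had a median of 0.39 in the 31 MDM windows, with a range from 0 at Piwil4 to 1.03 at Plcb4. The median was 0.567 over all protein-coding windows, 0.608 in the 6 windows of MDM regions outside genes and 0.691 in the 50 YSM windows. Of those 6 windows 4 are of genes (Dach1, Dpp4, Mgst1 and Tmtc1) whose start a member covers too. Of the MDM windows 21 lay under the median of all windows, and of the YSM windows 17 did. No test was made of this difference, and the 2 groups of windows overlap over most of their range.

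**Figure D1:**
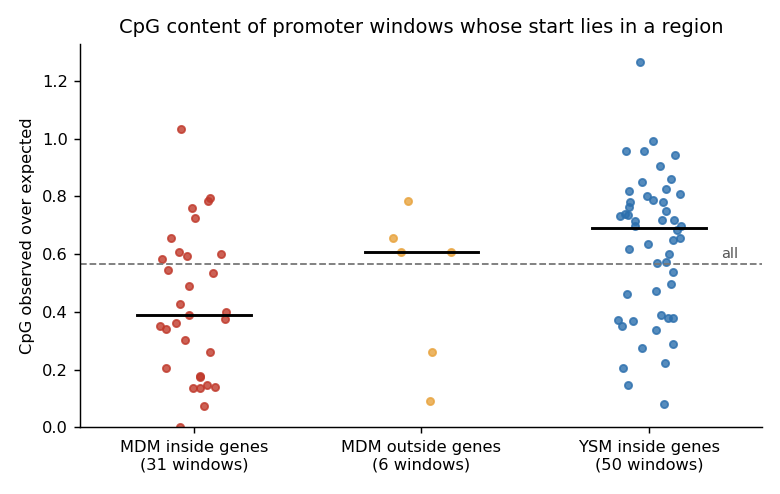
Ratio of observed to expected CpG (vertical axis, no unit) in RefSeq promoter windows whose transcription start lies in an MDM region inside a gene (31 windows), an MDM region outside genes (6) or a YSM region inside a gene (50). Each point is a window, black bars are medians and the dashed line is the median of all protein-coding windows, 0.567; the MDM windows inside genes reach from 0 to 1.03 around a median of 0.39.

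Innate sensing and monocyte genes were among the hosts with a marked start. Of 53 genes for pattern recognition and innate sensing, 4 hosted members (7.55%, against 0.667% of all genes) and 0 hosted YSM regions. Besides Nlrc4 (chr17:74458013-74460013) and Ifi44l (chr3:151761771-151763771) they were Lrrk2 and Nod2, the receptor of bacterial muramyl peptides. Lrrk2 held 1 region over its start (chr15:91672088-91674088) and another 30.5 kb downstream (chr15:91702261-91704261). In Nod2 the region lay mid-gene, 21.5 kb from the start of a gene of 41.2 kb (chr8:88667769-88669769), and the nearest YSM region was 97.0 kb away. Of 40 monocyte genes 3 were hosts (7.50%): Mgst1 (chr6:138140421-138142421), Sirpb1c (chr3:15847397-15849397) and its SIRP-beta relative Gm9733, with overlapping regions 0.029 and 0.635 kb from a gene end. Of 33 genes of engrafted brain macrophages 3 were hosts (9.09%): Anxa1 (chr19:20389663-20391663), Mgst1 and Cd163, the haemoglobin scavenger receptor. Neither list had a YSM host. These lists were written with results of the same data known, so the counts describe them and support nothing further.

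Scavenger, Fc and phagocytic receptors had 2 hosts of 50 (4.00%), the same number as in the YSM list. In Cd163, which also was the only host among 22 genes of border-associated macrophages, the region lay 17.2 kb from the start and 8.71 kb from the other end (chr6:124320819-124322819). Msr1, the class A scavenger receptor, had overlapping regions with midpoints 0.791 and 1.06 kb from a gene end (nearest chr8:39640959-39642959). Serpins had 2 hosts of 63 (3.17%), both protease inhibitors of the same cluster on chromosome 1: Serpinb2, which encodes plasminogen activator inhibitor 2, with a region 12.9 kb from the start (chr1:107512749-107514749), and Serpinb7 (chr1:107446535-107448535). Around them 4 and 6 further MDM regions lay outside protein-coding genes within 100 kb of the gene. These were counted for each gene apart, and the stretches searched overlap, so the counts share regions. Of 82 genes for cytokines, chemokines and their receptors 0 hosted a member. Of 40 microglia identity genes 0 did, while 7 of those 40 (17.5%) hosted YSM regions. Of all genes 0.667% were MDM hosts, and in lists this short a count of 0 lies near that share. YSM hosts were 1.59% of all genes. The lists in this paragraph too were written with results of the same data known, so their counts are a description only.

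Other hosts had a region within 1 kb of a gene end. Thbd, the thrombin receptor thrombomodulin (chr2:148406672-148408672), Pdpn, the mucin-like podoplanin (chr4:143298365-143300365), and Dpp4, the peptidase CD26 (chr2:62411047-62413047), had 1 region each. Cyp4f18, a cytochrome P450 that inactivates leukotriene B4, had a pair of overlapping regions, the nearer 0.067 kb from the start (chr8:72008601-72010601). The growth factor gene Pdgfc (chr3:81036276-81038276), the heparan sulfate sulfotransferase gene Hs3st1 (chr5:39643614-39645614), the deoxyribonuclease gene Dnase1l3 (chr14:7993218-7995218), the aldo-keto reductase genes Akr1b10 (chr6:34383353-34385353) and Akr1c13 (chr13:4190195-4192195), and Stxbp6 (chr12:45073709-45075709), Rnf217 (chr10:31608492-31610492), Zfp947 (chr17:22165008-22167008) and Klk1b21 (chr7:44003975-44005975) completed those near a start or an end of unknown direction, with the hosts described in other paragraphs. At Lrig1, an inhibitor of receptor tyrosine kinases, and Ccdc85c the region lay at the far end instead, 95.6 and 73.8 kb from the start. In all, 33 members in 30 hosts lay within 1 kb of a gene end, and for 5 of these hosts no strand was in the promoter table.

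Starts within genes were marked as well. In 7 hosts the covered start lay over 1 kb inside the annotated gene, as the starts of shorter transcripts do, and in Mgst1 both the outer start and a second one 1.06 kb inside were covered. The inner starts were 73.4 kb into Adam19, 28.7 kb into the potassium channel beta subunit gene Kcnab2, 22.1 kb into the pyrimidine nucleotidase gene Nt5c3, 22.3 kb into Piwil4, which encodes a protein of the piRNA pathway, and 3.13 kb into Ccdc141. The farthest were 173 kb into Ltbp1, which encodes a binding protein of latent TGF-beta, and 238 kb into Stard13. These positions say which annotated start a region covers, not that a transcript began there.

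Plcb4 held more member regions than any other host. It had 6 regions in 4 groups: a pair over the start (chr2:135657797-135659797 and chr2:135658195-135660195), 1 at 67.1 kb, a pair at 115 kb and 1 at 166 kb from the start, in a gene of 356 kb. Adam19, a membrane metalloprotease that sheds growth factors, had 5 regions in 3 groups, at 7.52 kb (chr11:46061020-46063020), about 22.2 to 23.2 kb and 73.5 to 74.1 kb from the start. Syne1, which encodes nesprin-1, a link between nucleus and cytoskeleton, had 5 regions in 2 groups, all over 174 kb from either end of a gene of 531 kb (nearest to an end chr10:5193654-5195654). Ptprk, a receptor tyrosine phosphatase, had 4 regions in 4 separate groups between 248 and 466 kb from the start of a gene of 523 kb. Stard13 had 4 in 3 groups (nearest an end chr5:151056158-151058158), and so had Fam110b, with a pair at 0.050 and 0.987 kb from an end (nearest chr4:5643059-5645059). Plxna4, a plexin that receives semaphorin signals, had 4 in 3 groups (nearest an end chr6:32183733-32185733).

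Receptors and enzymes of second messengers were spread over several hosts. Fshr, a G protein-coupled receptor that binds follitropin, had 4 regions in 2 groups, from 99.7 to 138 kb downstream of its start (chr17:89100010-89102010 to chr17:89061419-89063419), and 2 further MDM regions outside protein-coding genes within 100 kb. Vipr2, the receptor of vasoactive intestinal peptide, had 3 in 1 group near its 3' end, 64.4 to 68.0 kb from the start (chr12:116144395-116146395 the last). Of 91 second messenger enzymes 4 were hosts (4.40%) with 12 regions in all: Plcb4, the calcium-activated phosphodiesterase gene Pde1a with 3 regions (nearest an end chr2:80080562-80082562), Prkcq, which encodes protein kinase C theta, with 2 overlapping regions (chr2:11278097-11280097), and the cyclic AMP phosphodiesterase gene Pde7b with 1 (chr10:20504603-20506603). Of that list 43 genes are over 100 kb long, the 4 hosts among them. Of all genes of that length 3.54% were hosts, a share to set beside 4 of 43 and not beside 4.40%.

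Remaining hosts with 3 regions were of mixed roles. Dach1, a transcriptional cofactor, had 1 region over its start (chr14:98168146-98170146), another 1.79 kb and another 102 kb downstream, with 6 MDM regions outside protein-coding genes within 100 kb. Abcb1a, which encodes the drug efflux pump P-glycoprotein, had 3 regions in 2 groups (nearest an end chr5:8674815-8676815), and its neighbour and paralogue Abcb1b had 1 (chr5:8862691-8864691). Sntb1, a syntrophin of the dystrophin complex, had 3 in 2 groups (nearest chr15:55843949-55845949). In Cngb1, a subunit of the cyclic nucleotide-gated channel of photoreceptors (chr8:95293259-95295259), Cobll1 (chr2:65170194-65172194) and Dpp6, an accessory protein of potassium channels (chr5:27184115-27186115), the 3 regions formed 1 group each. Among the hosts of 2 regions that made 2 groups, Tmtc1 had 1 at its start (chr6:148443492-148445492) and 1 at 38.9 kb, and Exoc4, an exocyst subunit, had 1 at its start (chr6:33248123-33250123) and 1 at 307 kb. Piwil4 (nearest an end chr9:14737203-14739203) and Hepacam2 (chr6:3462224-3464224) made up the 20 hosts with most regions together with those named above.

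**Figure D2:**
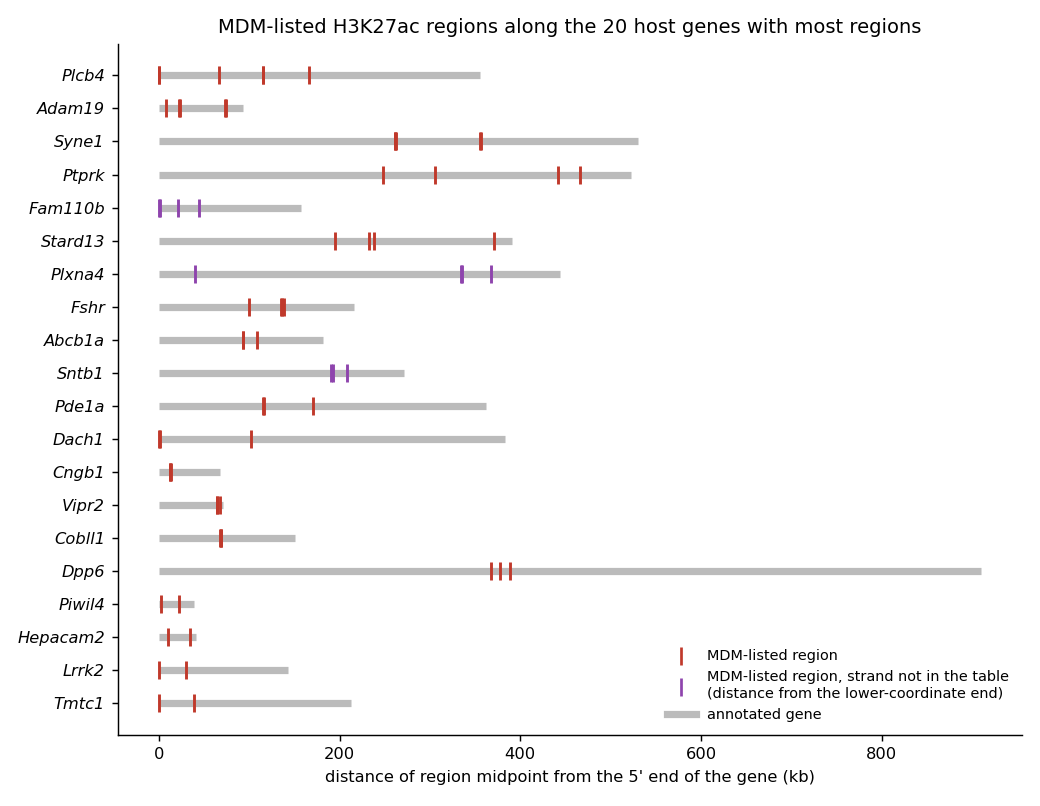
The 20 host genes with the most MDM-listed regions (rows), drawn to scale from the 5' end (horizontal axis, kb); grey bars are annotated genes and vertical ticks are region midpoints, purple where no strand was known and the distance runs from the lower-coordinate end. Plcb4, Dach1, Lrrk2 and Tmtc1 have regions at the start and downstream, whereas those of Syne1, Ptprk and Dpp6 lie over 50 kb from either end.

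Of 84 transcription factor genes of macrophages and blood cells, listed by name, 3 were hosts (3.57%), and 6 were YSM hosts. Of all genes 0.667% were MDM hosts and 1.59% YSM hosts. Over 100 kb, the length of 26 of the 84, the shares were 3.54% and 6.96%. The MDM hosts were Dach1, Foxp1 and Hoxb4. Foxp1, a forkhead repressor, had a region 87.4 kb from its start (chr6:99434301-99436301). The start of Hoxb4, a homeobox gene of blood stem cells, was covered (chr11:96317764-96319764). The other region of that group lay inside Hoxb3 only (chr11:96313959-96315959). Zinc finger genes had 3 hosts of 437, a share of 0.686%, close to the 0.667% of all genes: Zfp536, Zfp800 and Zfp947. Solute carriers had 2 of 351 (0.570%), Slc41a2 and Slc9a9; Slc35b4, a nucleotide sugar transporter with a region at its start (chr6:34175935-34177935), was outside the symbol pattern used for that list. A score above 1 was given to 6 members, in Syne1, Tmtc1, Thbd, Dnase1l3, Cntnap2 and Gm765 (chr6:98331914-98333914).

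Several hosts are genes known best from neurons. Of 52 neuronal adhesion and synapse organizer genes 4 were hosts (7.69%): Cntnap2 (chr6:45270717-45272717), Dlg2 (chr7:91715975-91717975), Dlgap1 (chr17:70570043-70572043) and Lrrtm4 (chr6:80260711-80262711), each with 1 region, from 212 to 732 kb from the nearest gene end. All 4 are over 500 kb long, and 7.49% of all protein-coding genes of that length were hosts. That share is not like for like with 4 of 52, since the list also holds shorter genes (median 491 kb). Of the 52 genes 39 are over 100 kb long, and of all genes over 100 kb 3.54% were hosts. Adhesion G protein-coupled receptors had 2 of 30 (6.67%), the latrophilins Adgrl2, with 2 regions 1.09 and 1.39 kb from its start (nearest chr3:148987011-148989011), and Adgrl3 (chr5:81036241-81038241). The shares in the other families stand beside 0.667% of all genes and 3.54% of genes over 100 kb. Metalloproteases had 2 of 86 (2.33%), Adam19 and Mmp27 (chr9:7571737-7573737), axon guidance genes 2 of 73 (2.74%), Plxna4 and Epha7 (chr4:28943402-28945402), and matrix genes 2 of 69 (2.90%), Col19a1 (chr1:24468820-24470820) and Tnr (chr1:159811970-159813970). Genes matched by the symbol pattern for cation channels, which takes in accessory subunits, had 2 of 164 (1.22%). They were Kcnab2 (nearest chr4:152447663-152449663) and Kcnip1 (chr11:33931438-33933438). Integrins had 1 of 26 (3.85%), Itga8, receptor phosphatases 1 of 20 (5.00%), Ptprk, and tyrosine kinases with docking proteins 1 of 50 (2.00%), Frs2. Each of these shares rests on 1 or 2 hosts. Cadherins (102 genes) and receptor subunits for glutamate, GABA and glycine (52) had 0.

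Markers of other cell types that a sort could let through were checked in the same way. Of 105 marker genes of neurons, astrocytes, oligodendrocytes and their precursors, endothelial and mural cells, neutrophils, T and NK cells, B cells, and mast cells and basophils, 0 hosted a member region, a count near the 0.667% of all genes that did. Markers that were not among the protein-coding genes used could not count. Those used were 8 of 11 chosen for B cells, 14 of 15 for T and NK cells and 17 of 18 for neurons. The YSM list had 1 host each among the markers of neurons (Celf4, of 17), astrocytes (Slc1a3, of 12) and oligodendrocytes and precursors (Mbp, of 16). Of all genes 1.59% were YSM hosts, and 6.96% of those over 100 kb. Each of these marker counts rests on 1 gene. The files give no level of the mark at these genes, so this is a count of listed regions and not a measure of purity.

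Host genes were long. Their median length was 117 kb, against 17.1 kb over all protein-coding genes and 96.9 kb for the 349 YSM hosts, and they ranged from 3.37 kb (Hoxb4) to 2241 kb (Cntnap2). The share of genes that were MDM hosts was 0.0927% up to 20 kb, 0.511% from 20 to 50 kb, 0.914% from 50 to 100 kb, 2.50% from 100 to 200 kb, 4.33% from 200 to 500 kb and 7.49% above. Per Mb of gene length the joined groups varied far less, from 0.114 in genes over 500 kb to 0.202 in genes of 100 to 200 kb. Genes over 100 kb made up 58.9% of MDM hosts (86 of 146) and hold 59.4% of all protein-coding gene sequence. Of all genes over 100 kb, 3.54% were MDM hosts and 6.96% YSM hosts. Genes of that length were 48.4% of YSM hosts (169 of 349), 10.5 percentage points lower (95% interval of the difference 0.830 to 19.7), which did not pass after adjustment over the 5 shares tested (Fisher's exact test, two-sided, p = 0.0384, Benjamini-Hochberg adjusted p = 0.0959). The YSM hosts include 21 overlapping protocadherin genes of 1 cluster.

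**Figure D3:**
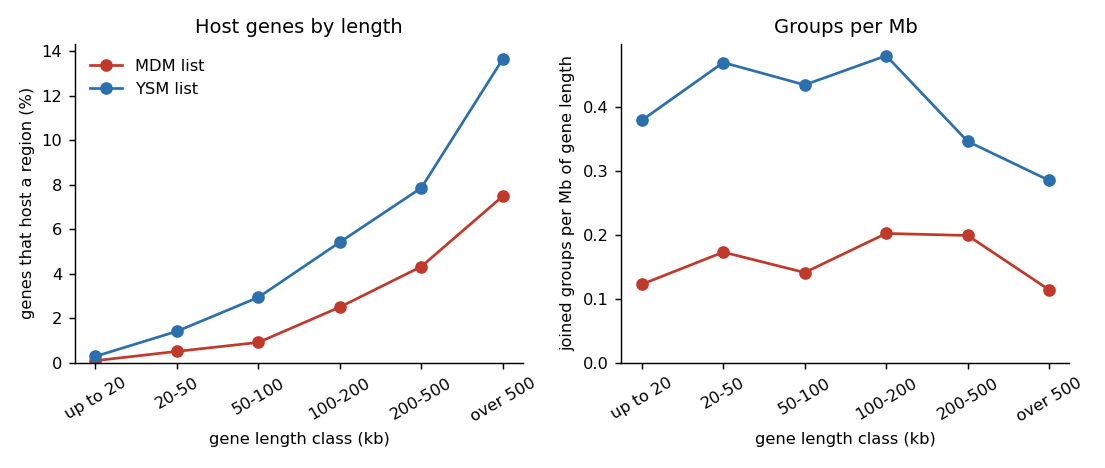
Share of protein-coding genes that host a region (left, %) and joined groups per Mb of summed gene length (right), by gene length class in kb, for the MDM and the YSM list. The MDM share climbs from 0.0927% to 7.49% with length, while the groups per Mb stay between 0.114 and 0.202.

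Most members lay far from gene ends. The median distance of a midpoint to the nearest end of its host was 23.2 kb, against 16.5 kb for YSM regions inside genes. Both medians count a region once for each gene that holds it. For YSM this counts a single region 21 times, near the shared end of overlapping protocadherin genes, which lowers that median. Of the members 74 lay over 50 kb from either end. Groups within 1 kb of a gene end were 30 of 171 in the MDM set (17.5%, exact 95% interval 12.2 to 24.1) and 47 of 391 in the YSM set (12%, 8.97 to 15.7). The difference of 5.52 percentage points (95% interval -0.612 to 12.53) did not pass (Fisher's exact test, two-sided, p = 0.0843, adjusted p = 0.141). Groups that covered an annotated transcription start were 30 of 171 (17.5%) against 42 of 391 (10.7%), a difference of 6.80 points (0.747 to 13.7) that also did not pass after adjustment (Fisher's exact test, p = 0.0289, adjusted p = 0.0959). A start could count only if its gene was in the promoter table, which held 121 of 146 MDM hosts and 261 of 349 YSM hosts. By region the coverage was closer: 179 of the 216 members and 451 of the 554 YSM regions inside genes had a host in that table. What this coverage adds to the difference was not tested. Groups are not independent where they share a gene, and all intervals cover counting error only. By region, 15.7% of the 216 members covered a start of a protein-coding gene, against 11.0% of YSM regions inside genes. Of the 212 MDM regions outside genes 2.83% did, a share limited by the rule for members. A region with its midpoint outside can cover a start only if a gene end lies within 1 kb.

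Within the gene, the members leaned towards the 5' side. Of 179 members whose host had a known strand, 32.4% lay in the first 25% of the gene, 25.7% in the second, 24.6% in the third and 17.3% in the last. The 451 YSM regions with a known strand had 29.0% in the first and 30.2% in the last 25%. The median position was 0.452 of the gene length from the 5' end for MDM and 0.557 for YSM. Regions of 1 gene share their position, and this difference was not tested.

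**Figure D4:**
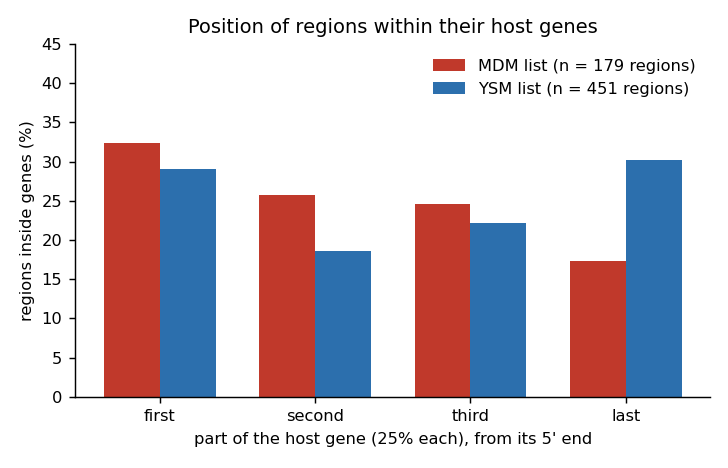
Share of regions inside genes (vertical axis, %) that fall in each successive 25% of the host gene from its 5' end, for 179 MDM-listed and 451 YSM-listed regions whose host has a known strand. MDM regions fall from 32.4% in the first part to 17.3% in the last, and YSM regions have 30.2% in the last.

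Of the 146 hosts 3 held regions of both lists, Dpp6, Fhit and Slc9a9, each over 500 kb long. YSM hosts were 1.59% of all protein-coding genes, 6.96% of those over 100 kb and 13.7% of those over 500 kb. In Dpp6 the nearest of the 3 MDM regions lay 280 kb from the YSM region, in Fhit, a nucleotide hydrolase gene, the MDM region (chr14:10138612-10140612) lay 1022 kb from the start and the YSM pair near the 3' end, and in Slc9a9, an endosomal sodium-proton exchanger, the regions lay 79.4 kb apart (MDM chr9:95071725-95073725, YSM chr9:95151124-95153124). The closest YSM region to any member was 68.2 kb away, at Lrig1, and the median host had its nearest YSM region 2102 kb away. Hosts with 2 or more groups made up 12.3% of MDM hosts (18 of 146) and 12.9% of YSM hosts (45 of 349), a difference of -0.565 points (95% interval -6.45 to 6.48, Fisher's exact test, p = 1, adjusted p = 1).

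Chromosomes 6 and 10 held 46 of the 171 groups (26.9%) and 36 of the 146 hosts, with 23 groups each, while they hold 11.2% of protein-coding gene sequence. The same 2 chromosomes held 11.5% of the MDM groups outside genes and 12% of the YSM groups inside genes. They were picked after the counts were seen and were not tested. On chromosome 6, 8 members in a row with no YSM region between them covered 2.2 Mb at Plxna4, Exoc4, Slc35b4 and Akr1b10 (chr6:32183733-34385353). On chromosome 10, Plekhg1, the estrogen receptor gene Esr1, Syne1, Adat2 and Pde7b held 10 of 13 MDM regions in a stretch of 16.8 Mb without a YSM region (chr10:3696621-20506603), and L3mbtl3, Ptprk and Rnf217 held all 7 in another of 5.29 Mb (chr10:26321715-31610492). A further stretch there, of 22.9 Mb, had 6 of 7 inside Man1a, Hk1, Cabcoco1 and Pcbp3. Such stretches also lay on other chromosomes. One on chromosome 12 held 25 MDM regions within 1.47 Mb (chr12:114990167-116461620). Of these 4 were members, in Vipr2 and Ncapg2, and the others lay outside protein-coding genes. Vipr2 begins only at chr12:116077420, so much of that stretch lies before it. Chromosome 19 had 1 member, at Anxa1. X and Y had 0, and they had 0 too among MDM regions outside genes and YSM regions inside genes.

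**Figure D5:**
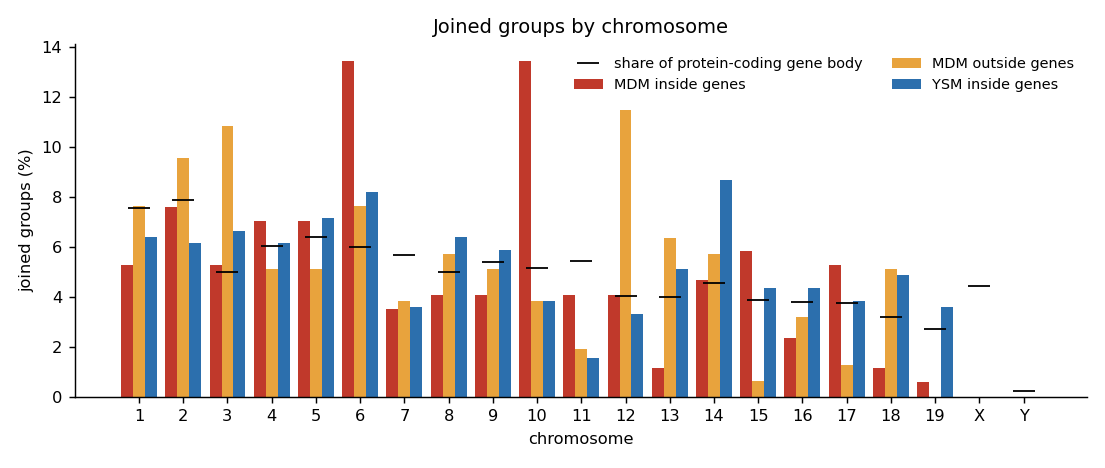
Share of joined groups on each chromosome (bars, %) for MDM regions inside genes, MDM regions outside genes and YSM regions inside genes; black dashes mark the share of protein-coding gene sequence. Chromosomes 6 and 10 each hold 13.5% of the MDM groups inside genes, above 5.99% and 5.16% of gene sequence.

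Region names end in a whole number whose meaning is not stated. It was 4 or more in 60.8% of MDM groups inside genes (104 of 171, 1 region per group) and 55.4% of those outside (87 of 157), a difference of 5.40 points (95% interval -5.22 to 15.9) that did not pass (Fisher's exact test, two-sided, p = 0.370, adjusted p = 0.463). By region it was 56.9% for the members and 17.5% for YSM regions inside genes (97 of 554), with medians of 4 and 2, and this difference was not tested. By Fisher's exact test 0 of the 5 shares reached an adjusted p of 0.05; without adjustment 2 did, long hosts and covered starts.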

How the data were processed

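H3K27ac CUT&Tag was run on 4 MDM and 4 YSM libraries. The lists hold no values per library, so read depth is unknown, no library could be left out and no error between libraries can be given. The 2 other libraries (1 MDM, 1 YSM), H3K27me3 by their labels though the series text names an H3K4me3 antibody, were not analysed here. Per the submitters' processing notes, the build was mm10 and the tools included HOMER, Picard, Bowtie2 2.2.5 and Trimmomatic 0.39, with no role stated. Each list deposited by the authors gives chromosome, start, end, name and a score of unstated meaning, which was 1 in 210 members; it served only in the rule for named genes. Each list was taken to hold regions with more H3K27ac in the group it is named after; its threshold is not given in the sources used.

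Starts were shifted by 1 to count from 1. Genes were from RefSeq GRCm38.p6 (21900 protein-coding) and starts and strands from a promoter table with 17492 of them, including 121 of 146 MDM hosts; exons, introns and UTRs were not separated. Regions were joined within 12.5 kb. Fisher's exact test (SciPy 1.17.1, two-sided) compared 5 shares, Benjamini-Hochberg adjusted at 0.05, with Newcombe intervals for differences and exact Clopper-Pearson 95% intervals for shares; the test was tested on simulated data. Regions and genes are the units, so p-values do not measure spread between animals. The 24 gene lists (8 by name, 16 by symbol pattern) and 8 marker lists were described by counts, and 1 of them is not reported here. Named genes were the 20 hosts with most regions, ties going to more groups, shorter genes and then symbols. They also took in hosts with a midpoint within 1 kb of an end or a covered start, hosts in a list and hosts with a score above 1. The members and lists were chosen with earlier results of these data known. Alternatives changed the joining distance, the window, the length limit, the host of nested genes, the definition of inside and the name number.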

Additional observations from a re-analysis of the deposited data

How the results depend on the processing

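No paired analysis was possible because a listed region carries no value for single libraries; leaving out a library was not run for that reason. None of the alternatives run moved any of the 5 shares across the threshold or changed a direction, and the numbers of members, joined groups and hosts in lists moved by less than 1.5 times. Counts behind the shares moved further where the alternative redefined them. Hosts with 2 or more groups went from 18 to 8 for MDM and from 45 to 20 for YSM when joined within 50 kb, and to 71 for YSM when joined only where overlapping. Hosts over the length limit went from 86 to 50 and from 169 to 91 at 200 kb. YSM groups near an end went from 47 to 93 at 5 kb. Groups past the name number went from 104 to 21 inside genes and from 87 to 17 outside with a limit of 5. The MDM excess of groups near a gene end was between 1.95 points (5 kb window) and 5.90 points (joined within 50 kb), and that of covered starts between 4.73 and 7.63 points. For hosts over the length limit it was between 5.03 points (50 kb) and 12.1 points (shortest of nested genes; Fisher's exact test, adjusted p = 0.0723). Hosts with 2 or more groups differed by -3.22 to -0.251 points, and name numbers by 1.45 to 3.72 points. Members numbered 184 with the whole region inside, 226 with any overlap and 271 with genes of every type. Groups numbered 154 joined within 50 kb and 182 joined only where overlapping. A listed region has no level, fold or error here.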

Other observations

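Hosts outside the rule for named genes include regulators and enzymes, chosen here after their values were seen. Esr1 had 1 region 20.4 kb from its start (chr10:4631401-4633401), and the cell cycle kinase gene Cdk6 had 1 at 93.1 kb, close to mid-gene (chr5:3433080-3435080). The lysophosphatidic acid receptor gene Lpar1 had 1 at 47.1 kb (chr4:58505947-58507947). Genes of sugar and fatty acid metabolism were also hosts: the hexokinase gene Hk1, with a region 52.2 kb from its start (chr10:62326750-62328750), the phosphofructokinase gene Pfkp, with 1 at 15.4 kb (chr13:6632664-6634664), and the fatty acid elongase gene Elovl6, with 2 overlapping regions at 20.9 and 21.8 kb.

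Long non-coding RNA genes start within 3 members: Gm13855 at the start of Slc35b4, Gm52877 inside Cd163 and Gm36395 inside Kcnip1, each on the strand opposite to its host. With genes of every type counted, 55 more MDM regions would lie inside a gene.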
